A study of Mus musculus with 12 samples.

Results

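Oligodendrocytes, the myelin-forming cells of the spinal cord, arise from precursor cells (OPCs) that divide, migrate and persist into adult life. A precursor that leaves the cell cycle passes through a short committed and premyelinating stage before it wraps axons, and each stage carries its own receptors, enzymes and transcription factors. The 9 genes described here were chosen by name for their known place in this sequence, and 9 of the 49548 genes in the deposited count files answer to them. Pdgfra, Cspg4 and Lhfpl3 mark the precursor; Olig1 and Olig2 encode the basic helix-loop-helix transcription factors that specify the lineage; Gpr17, Bmp4, Tcf7l2 and Enpp6 mark committed and premyelinating cells. The choice was made with earlier results of these data known, but used no measured value.

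The counts come from the lumbar spinal cord of 8 MFN2 mice and 4 WT mice that were 30 days old and untreated, with 1 library per mouse. MFN2 mice are hemizygous MitoCharc1 animals, labelled CMT2A with the transgene Tg(Eno2-MFN2*R94Q) of line L51Ugfm/J on a B6;D2 strain, which carry human MFN2 with the R94Q change of Charcot-Marie-Tooth disease type 2A under the rat Eno2 promoter, active mainly in neurons, and keep their own Mfn2 genes. WT mice are labelled C57BL/6, and the study describes them as littermates; what the groups differ in besides the transgene was not tested. Total counts ranged from 19359454 to 26738930 per library. The 9 genes are used here as markers of glial cells, and other cells also express some of them, as given below. In bulk tissue fewer cells of a type and less RNA per cell cannot be told apart.

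Libraries are named by their numbers. All 4 WT libraries (44 to 47) and 3 MFN2 libraries (41 to 43) belong to one run of numbers. The remaining 5 MFN2 libraries (72 to 76) belong to another. The sources used here do not say what the numbers stand for. The genotypes can be compared within one run only between MFN2 41-43 and WT 44-47; between MFN2 72-76 and WT 44-47, genotype and run of numbers cannot be told apart. The comparisons share the same 4 WT libraries.

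MFN2 library 43 stood apart from all others, and several values from comparisons that hold it are given with and without it. Its summed level of 9 caudal Hox genes was 50.4 CPM (counts relative to a library size scaled by TMM, per 1e6). The other 11 libraries had 299 to 364 CPM. Its summed level of 11 forebrain genes was 4776 CPM against 112 to 209 CPM elsewhere, and 11 of these 11 genes were highest in it. All 18 of the mature oligodendrocyte and myelin genes were lowest in library 43, with a sum of 9283 CPM against 23649 to 38258 CPM. The 7 of 7 motor neuron markers that were lowest in it summed to 35.8 CPM, and to 155 CPM or more elsewhere. Of the 9 genes, Enpp6, Olig1, Olig2 and Lhfpl3 were lowest in library 43, and Pdgfra and Tcf7l2 were highest, which makes 4 and 2 of 9 against 28.7% and 25.9% of the 15942 genes tested. The summed level of 16 other precursor genes, among them Ptprz1, a receptor phosphatase, was 1166 CPM there and between 746 and 846 CPM elsewhere, and 6 of the 16 were highest in it and 2 lowest. The label of library 43 names the spinal cord, as for all others.

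**Figure D1:**
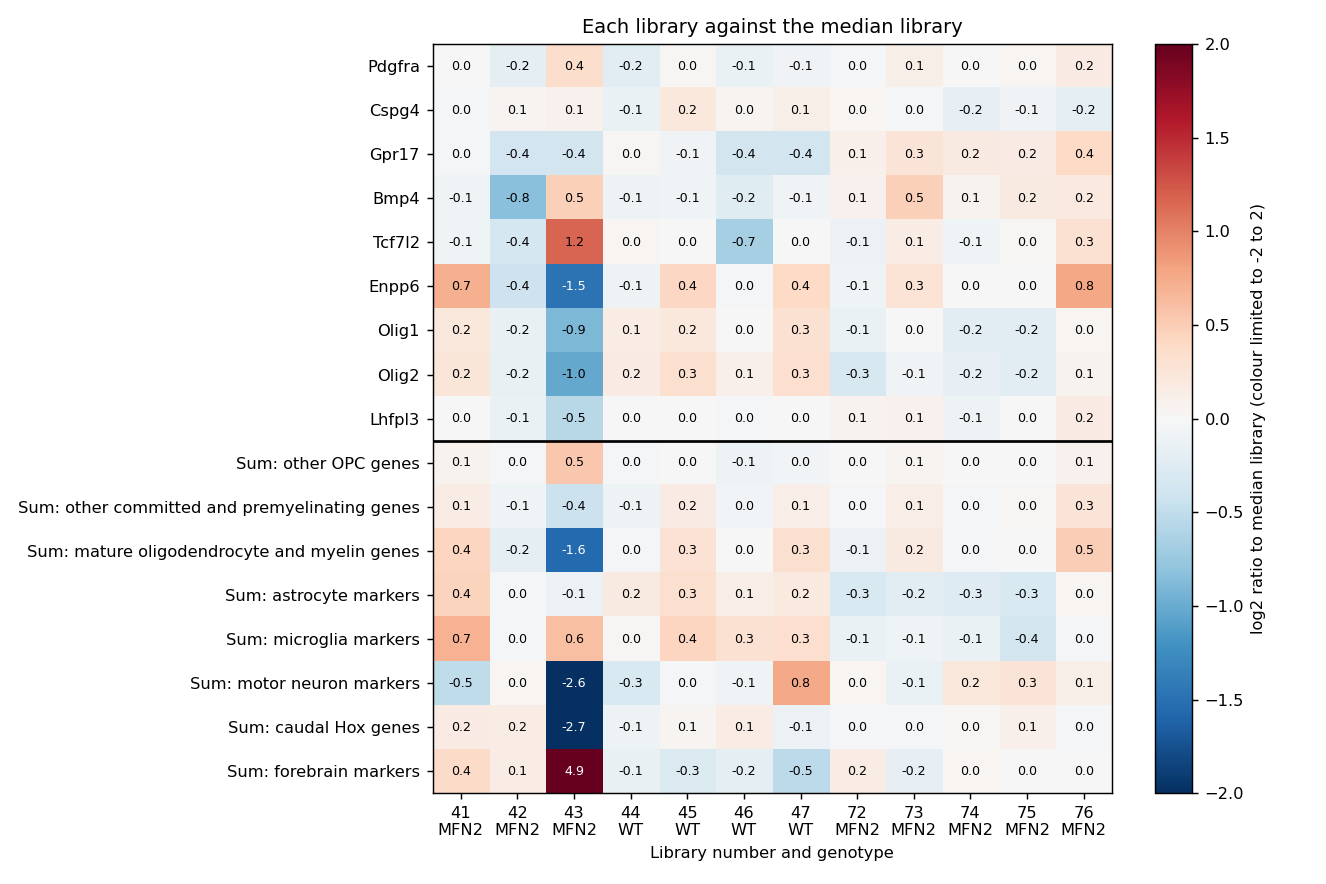
Each cell gives the log2 ratio of a library's level (CPM) to the median of the 12 libraries, for the 9 genes above the line and for summed marker lists below it, with libraries and genotypes on the horizontal axis; the colour scale stops at -2 and 2. Library 43 is low for Enpp6, Olig1, Olig2, Lhfpl3, Gpr17, the other committed list, the myelin list, the motor neuron list and the Hox list. It is high for Pdgfra, Bmp4, Tcf7l2, the other OPC list, the microglia list and the forebrain list.

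Every one of the 9 genes was detected in every library. The lowest count was 59 reads, for Bmp4 in MFN2 library 42, and the highest was 5653 reads, for Olig1 in MFN2 library 41, so that Bmp4 is the member with the least counting precision. Levels between genes were compared per length, as RPKM (CPM divided by the length of the merged exons in kilobases). Olig1 was the most abundant, with 84.2 RPKM ± 15.9 (SD, n = 12), which placed it 300th among the 15942 genes tested. Gpr17 followed with 23.4 RPKM ± 4.45, Olig2 with 14.5 ± 3.22, Enpp6 with 13.9 ± 4.71 and Lhfpl3 with 12.4 ± 1.37. Pdgfra had 6.18 RPKM ± 0.708, Cspg4 3.16 ± 0.261, Tcf7l2 2.30 ± 0.857 and Bmp4 1.84 ± 0.408. Between neighbours in this order, the lowest library of Olig1 (46.3 RPKM) lay above the highest of Gpr17 (31.3 RPKM), Lhfpl3 lay above Pdgfra, and Pdgfra above Cspg4, in each case without overlap. The other neighbours overlapped; Olig2 and Enpp6, for example, kept this order in 7 of 12 libraries.

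**Figure D2:**
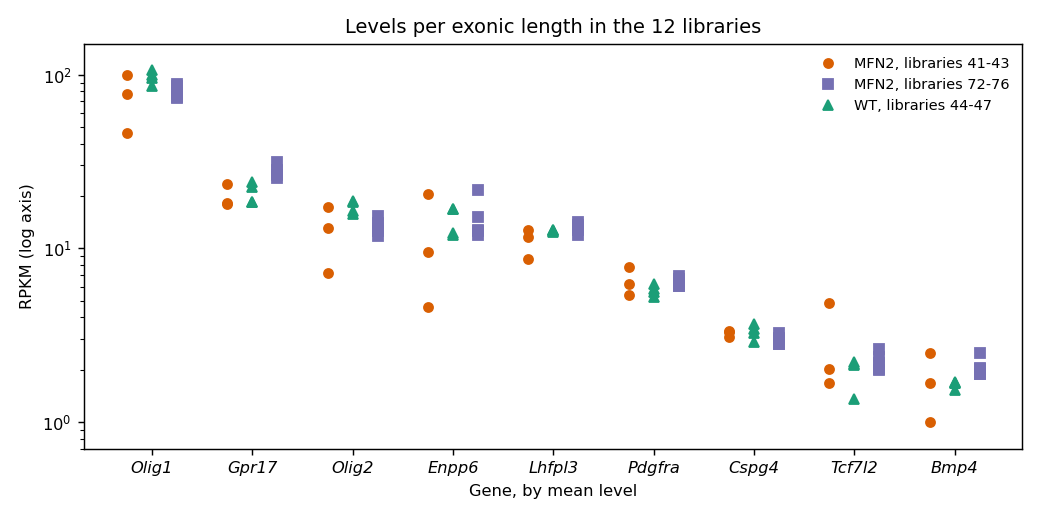
Level of each gene per exonic length (RPKM, log axis) in each of the 12 libraries, with genes ordered by their mean; circles are MFN2 41-43, triangles WT 44-47 and squares MFN2 72-76. Olig1 lies above all others in every library, and the lowest circle of Olig1, Olig2 and Enpp6 is library 43.

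Stretches of genome before the transcription start are shown for 4 members. Olig2 is a transcription factor of the class that reads the E-box, a 6-base motif with the letters CANNTG. The other 3 hold those letters there, which makes 3 of the 7 members with a promoter sequence, beside 66.2% of all promoters searched. RefSeq promoter sequences (GRCm38.p6) matched 7 of the 9 genes and were not found for Gpr17 and Olig1. CANNTG, which reads alike on both strands, was found in the 250 bases upstream of 66.2% of 32851 promoters, and its variant CAGCTG in 13%. The letters CTTTGAT, read by TCF factors such as the product of Tcf7l2, were found on either strand in 3.21%. Bmp4 held 3 matches to CANNTG, Lhfpl3 held 2, both of them CAGCTG, and Pdgfra held 1; Cspg4, Enpp6, Olig2 and both starts of Tcf7l2 held 0. CTTTGAT was in 0 of the members' windows. A match of letters is a description and not a binding site. In the sequences, written 5′ to 3′ on the strand of the gene, capitals mark CANNTG. They lie at chr16:91225300-91225456 on the plus strand (Olig2), chr5:75152001-75152250 on the plus strand (Pdgfra), chr14:46390670-46390919 on the minus strand (Bmp4) and chr5:22745804-22746053 on the plus strand (Lhfpl3), each upstream of the annotated starts.
Olig2: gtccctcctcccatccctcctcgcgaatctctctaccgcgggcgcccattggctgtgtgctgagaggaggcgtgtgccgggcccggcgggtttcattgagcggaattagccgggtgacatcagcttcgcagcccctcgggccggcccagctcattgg
Pdgfra: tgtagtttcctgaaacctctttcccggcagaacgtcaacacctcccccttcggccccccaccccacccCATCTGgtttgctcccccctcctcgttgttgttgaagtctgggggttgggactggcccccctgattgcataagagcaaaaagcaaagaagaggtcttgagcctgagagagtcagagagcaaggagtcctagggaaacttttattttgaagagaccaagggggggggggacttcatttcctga
Bmp4: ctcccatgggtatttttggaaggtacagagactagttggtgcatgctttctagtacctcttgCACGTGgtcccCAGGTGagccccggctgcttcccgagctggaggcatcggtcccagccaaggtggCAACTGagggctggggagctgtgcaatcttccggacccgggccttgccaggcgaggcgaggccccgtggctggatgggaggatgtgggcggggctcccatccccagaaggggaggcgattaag
Lhfpl3: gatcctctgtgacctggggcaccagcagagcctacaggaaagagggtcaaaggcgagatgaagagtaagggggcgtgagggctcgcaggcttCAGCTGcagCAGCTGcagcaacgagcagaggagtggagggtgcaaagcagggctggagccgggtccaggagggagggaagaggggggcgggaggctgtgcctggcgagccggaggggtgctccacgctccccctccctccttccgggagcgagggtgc

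Pdgfra encodes the receptor through which platelet-derived growth factor keeps precursors dividing and alive. It lies on chr5:75152292-75198215 (GRCm38, plus strand; ENSMUSG00000029231). Its level was 62.0, 53.7 and 78.5 CPM in MFN2 libraries 41, 42 and 43, and 52.5, 62.6, 55.8 and 58.8 CPM in WT libraries 44 to 47. In MFN2 libraries 72 to 76 it was 60.5, 66.3, 60.9, 63.2 and 69.0 CPM. Library 43 was the highest of all 12, and 3 of the 5 libraries 72 to 76 lay above every WT library while the rest overlapped. Over all libraries the log2 fold change of MFN2 against WT was 0.16 (SE 0.090, adjusted p = 0.391; edgeR quasi-likelihood test with Benjamini-Hochberg adjustment, used for every adjusted p below), and without library 43 it was 0.12.

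Cspg4 encodes the NG2 proteoglycan, a surface protein of precursors that pericytes of small vessels also carry. It lies on chr9:56865033-56899870 (plus strand; ENSMUSG00000032911). Its level hardly moved between libraries: it lay between 33.4 CPM in MFN2 library 76 and 43.5 CPM in WT library 45, with 39.9 CPM in library 43. MFN2 mice had 36.7 CPM ± 2.47 (SD, n = 8) and WT mice 39.5 ± 3.83 (n = 4), a log2 fold change of -0.10 (SE 0.074, edgeR adjusted p = 0.491). This value was -0.16 without WT library 44, -0.054 without WT library 45, -0.053 with library size only and -0.034 with the run of numbers as a term. The ratio of Cspg4 to Pdgfra in RPKM was 0.577 ± 0.017 in WT mice and 0.486 ± 0.066 in MFN2 mice. In MFN2 libraries 72 to 76 it lay between 0.407 and 0.538, below the WT range of 0.552 to 0.586, but there genotype and run of numbers cannot be told apart. In the run shared with WT, libraries 41 and 43 lay below that range, at 0.495 and 0.427, and library 42 above it, at 0.615. The ratios of Gpr17 and of Enpp6 to Pdgfra overlapped between the genotypes.

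Lhfpl3 encodes a membrane protein of the tetraspan family whose transcript is enriched in precursors. It lies on chr5:22746059-23275597 (plus strand; ENSMUSG00000106379), and 17.6% of its exonic bases are shared with an antisense non-coding gene, A930003O13Rik, which itself stood at 1.47 CPM in MFN2 and 1.78 CPM in WT mice. Among the 4 WT mice its level was the steadiest of the 9 genes, at 40.5 CPM ± 0.474. MFN2 libraries 41 and 42 had 40.8 and 37.0 CPM, library 43 had 27.9 CPM, and libraries 72 to 76 ran from 38.1 to 45.7 CPM. The log2 fold change of MFN2 against WT was -0.03 (SE 0.105, edgeR adjusted p = 0.890), and it was 0.025 when library 43 was left out and -0.20 with the run of numbers as a term.

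Olig2, on chr16:91225457-91228677 (plus strand; ENSMUSG00000039830), is needed for the lineage to form at all. Its level was 41.4, 46.4, 39.7 and 47.01 CPM in WT libraries 44 to 47. In MFN2 libraries 72 to 76 it was 29.7, 35.4, 33.2, 31.7 and 38.7 CPM. MFN2 libraries 41, 42 and 43 had 43.98, 33.3 and 18.3 CPM. All 5 of libraries 72 to 76, and 7 of the 8 MFN2 libraries in all, lay below every WT library, and library 41 lay within the WT range. Olig2 was the gene of the 9 with the smallest p between all MFN2 and WT mice, with a log2 fold change of -0.40 (SE 0.167, adjusted p = 0.302, edgeR), and -0.31 (adjusted p = 0.125) without library 43.

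Olig1 lies 41094 bases downstream of the end of Olig2, on chr16:91269772-91271933 (plus strand; ENSMUSG00000046160), and its product acts with OLIG2 in maturation and repair of myelin. Its level was 205, 215, 187 and 228 CPM in WT libraries 44 to 47. MFN2 libraries 72 to 76 had 170, 185, 161, 159 and 190 CPM, and libraries 41, 42 and 43 had 216, 167 and 99.99 CPM. As for Olig2, library 43 was the lowest and library 41 sat among the WT mice; 6 of 8 MFN2 libraries lay below every WT library. The log2 fold change of MFN2 against WT was -0.31 (SE 0.149, edgeR adjusted p = 0.346), and -0.23 (adjusted p = 0.158) without library 43. Per length the neighbours kept a narrow ratio: Olig1 stood at 5.41 to 6.68 times the RPKM of Olig2 in all 12 libraries, and library 43, the lowest for both, had a ratio of 6.41.

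Gpr17 encodes a G protein-coupled receptor that appears as precursors commit and is lost before myelin is laid down. It lies on chr18:31942997-31949636 (minus strand; ENSMUSG00000052229), and 3.62% of its exonic bases are shared with Lims2 on the other strand, a gene at 15.4 CPM in MFN2 and 15.8 CPM in WT mice. Its level was 132, 147, 139, 137 and 162 CPM in MFN2 libraries 72 to 76. WT libraries 44 to 47 had 124, 117, 95.4 and 95.3 CPM. MFN2 libraries 41, 42 and 43 had 121, 93.8 and 94.7 CPM. Each of these 5 libraries 72 to 76 lay above each of the 7 libraries of the other run, whatever their genotype, and the 3 MFN2 libraries of that run overlapped with WT. Over all 8 MFN2 mice the log2 fold change was 0.25 (SE 0.147, edgeR adjusted p = 0.411), and it turned to -0.06 (adjusted p = 0.813) when the run of numbers entered the fit as a covariate.

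Bmp4 encodes a secreted bone morphogenetic protein, a signal made by committed cells that can turn precursors away from the oligodendrocyte path. It lies on chr14:46383520-46390669 (minus strand; ENSMUSG00000021835). At 3.69 CPM ± 0.184 in WT mice it was the rarest member, resting on 73 to 86 reads a library. MFN2 libraries 72 to 76 had 4.26, 5.62, 4.22, 4.53 and 4.59 CPM, all above the highest WT library at 3.81 CPM. MFN2 libraries 41, 42 and 43 spread around them, with 3.78, 2.25 and 5.58 CPM. The log2 fold change over all MFN2 mice was 0.24 (SE 0.200, edgeR adjusted p = 0.562), and 0.066 with the run of numbers as a term.

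Tcf7l2 encodes a transcription factor that works with beta-catenin in WNT signalling and is switched on for a short time in premyelinating cells. It lies on chr19:55741820-55933654 (plus strand; ENSMUSG00000024985). Its level in library 43 was 42.3 CPM, while the other 11 libraries ran from 11.9 CPM in WT library 46 to 23.2 CPM in MFN2 library 76. WT libraries 44, 45 and 47 had 19.3, 19.0 and 18.6 CPM, in the middle of the MFN2 range. The log2 fold change was 0.33 (SE 0.255, edgeR adjusted p = 0.527) and was 0.12 without library 43, 0.19 without WT library 46 and 0.53 with the run of numbers as a term. Neurons of the thalamus also express this gene; of 8 thalamus markers 5 were highest in library 43 and 2 were lowest, and their sum was the lowest there, at 384 CPM against 424 to 570 CPM. That low sum was carried by Calb2, with 88.6 CPM in library 43 against 169 to 255 CPM elsewhere. The part of thalamic neurons in the Tcf7l2 value of library 43 was not tested.

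Enpp6 encodes a choline phosphodiesterase of newly formed oligodendrocytes. It lies on chr8:46986887-47096762 (plus strand; ENSMUSG00000038173) and had the widest spread over the 12 libraries after Tcf7l2, with coefficients of variation of 33.9% and 37.3%; without library 43 they were 26.3% and 16.3%, and Enpp6 had the widest spread. MFN2 library 76 had 138 CPM and library 41 had 132 CPM, while libraries 42 and 43 had 60.7 and 29.3 CPM. The other 4 MFN2 libraries lay between 76.4 and 97.6 CPM, and WT libraries 44 to 47 had 76.002, 108, 78.9 and 107 CPM. The genotypes overlapped fully, with a log2 fold change of -0.09 (SE 0.313, edgeR adjusted p = 0.909). This value was 0.045 without library 43 and -0.32 with the run of numbers as a term. The libraries with the most Enpp6, 76 and 41, also had the largest summed level of the 18 mature myelin genes, at 38258 and 36812 CPM, and the libraries with the least, 43 and 42, had the smallest, at 9283 and 23649 CPM. The highest library of Pdgfra was the one with the least myelin message, library 43, while among the other 11 its highest was library 76, which had the most. Between Pdgfra and Enpp6, in log2 CPM, Pearson r was -0.25 and Spearman rho 0.36 over 12 libraries, and r was 0.71 and rho 0.76 over the 11 without library 43.

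**Figure D3:**
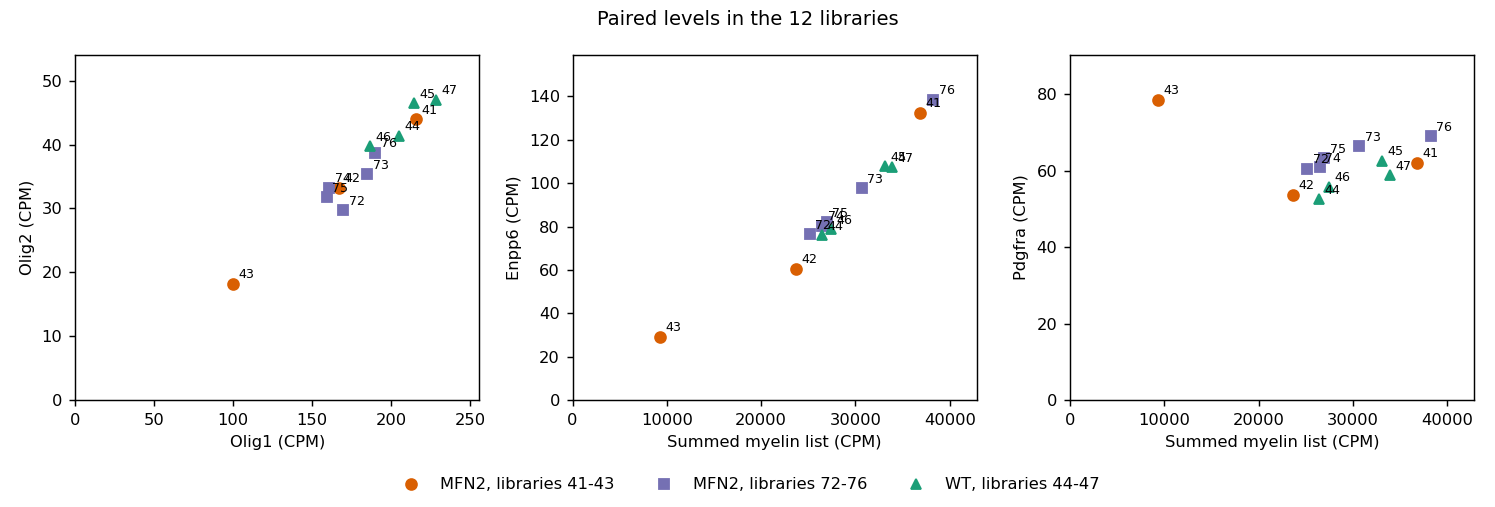
Each point is 1 library (number beside it), with Olig2 against Olig1, Enpp6 against the summed level of the 18 myelin genes, and Pdgfra against the same sum, all in CPM on axes that start at 0; circles are MFN2 41-43, triangles WT 44-47 and squares MFN2 72-76. Library 43 sits at the low end for both Olig genes and for Enpp6 but has the highest Pdgfra.

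**Figure D4:**
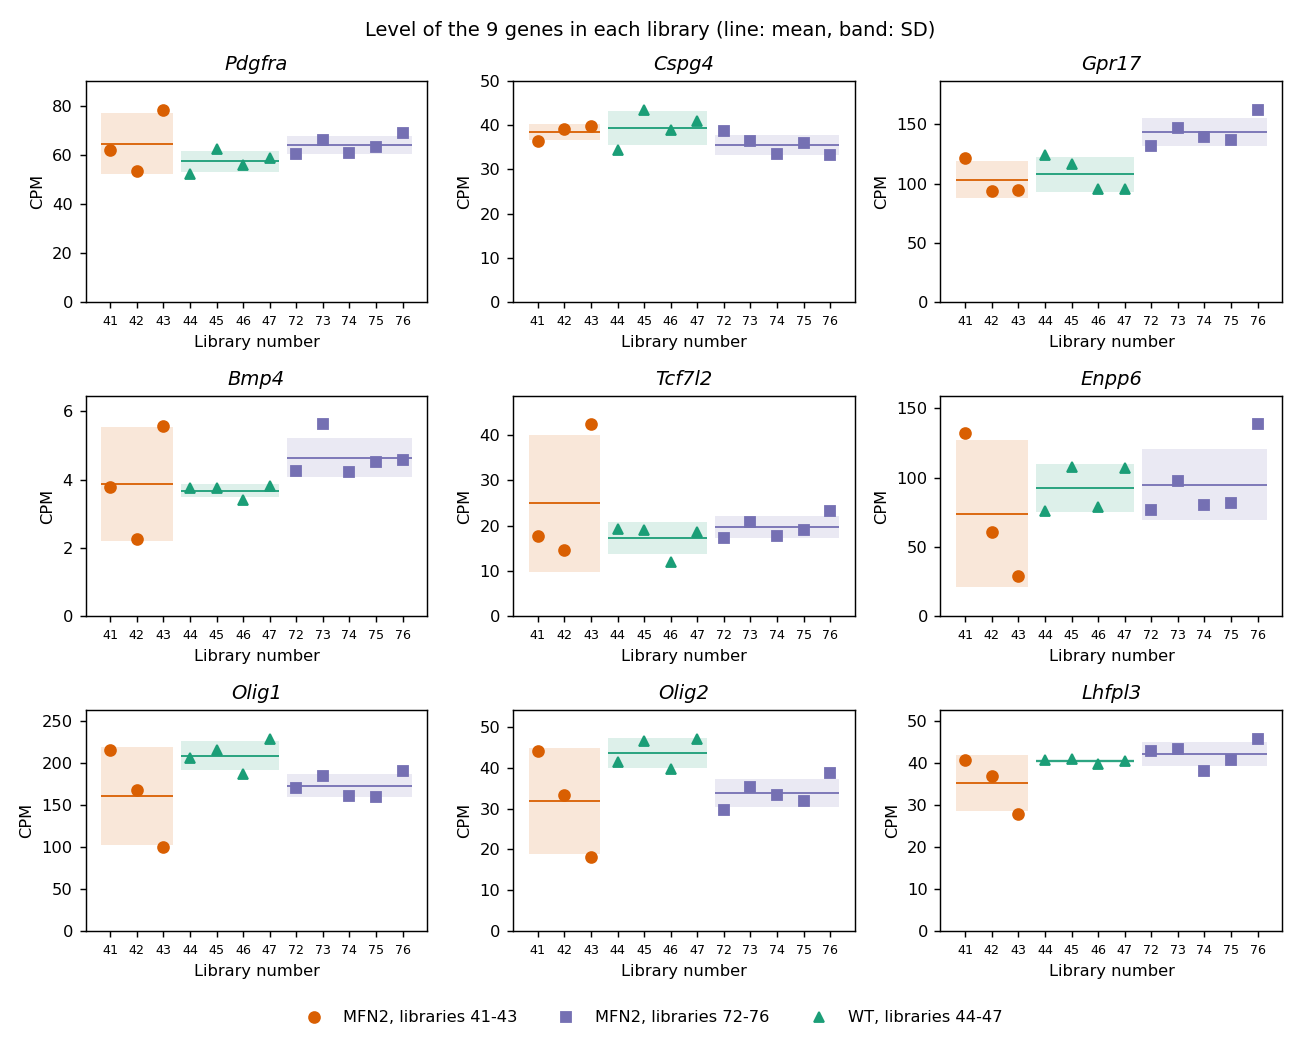
Level of each of the 9 genes (CPM, axes from 0) in each library, with the mean of each set as a line and 1 SD as a band. For Gpr17 the 5 squares (MFN2 72-76) lie above all other points, and for Olig2 they lie below all WT triangles.

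Taken over all 8 MFN2 and 4 WT mice, no change in the 9 genes passed the threshold. At an adjusted p of 0.05 or less, 0 of 9 members and 0 of 15942 genes were called (0.00%) by the edgeR quasi-likelihood test; DESeq2 called 200 genes, none of them a member, and limma voom called 0. At an unadjusted p under 0.05, edgeR gave 1 member, Olig2, beside 15.0% of all genes tested. Of the members, 4 had a positive and 5 a negative fitted change, with a median log2 fold change of -0.03 against 0.0038 over all genes tested. Levels that did not overlap between the genotypes were found for 0 of 9 members and for 2.04% of the genes tested.

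Within the run of numbers that holds both genotypes, no change in the 9 genes passed the threshold between MFN2 41-43 and WT 44-47. The edgeR test called 0 of 9 members and 1 of 15200 genes (0.00658%), and DESeq2 and limma voom called 0 members. At an unadjusted p under 0.05 there were 0 members, beside 7.12% of all genes, and levels without overlap in 0 members, beside 8.97%. The fitted changes of Olig2 and Olig1 were -0.44 (SE 0.257) and -0.36 (SE 0.229) on the log2 scale, with adjusted p of 0.622 and 0.630 in edgeR. They moved with single libraries: without library 43 they were -0.17 and -0.12, and without library 41 they were -0.73 and -0.62 (adjusted p = 0.302 for both, edgeR). For Tcf7l2 the value went from 0.55 (SE 0.379) to -0.076 without library 43, and it was 0.75 without library 41.

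Between MFN2 72-76 and WT 44-47, Gpr17 rose and the lineage factors Olig1 and Olig2 fell, while the precursor receptor Pdgfra and NG2 did not pass the test. The log2 fold change of Gpr17 was 0.41 (SE 0.089, edgeR adjusted p = 0.0076), or 1.33-fold, higher than every WT library in 5 of 5 libraries. Olig2 fell by 0.37 (SE 0.081, adjusted p = 0.0066), with 5 of 5 libraries below every WT library, and Olig1 fell by 0.27 (SE 0.071, adjusted p = 0.016), with 4 of 5. These 3 of 9 members stand beside 23.8% of all 15743 genes tested, 11.1% higher and 12.7% lower, so that the share of members called was near that of all genes. Bmp4 (0.33, SE 0.132, adjusted p = 0.086) and Pdgfra (0.15, SE 0.061, adjusted p = 0.083) were just outside the threshold. At an unadjusted p under 0.05 there were 5 members, these and the 3 called, beside 37.8% of all genes. Levels did not overlap for 3 members, Gpr17 and Bmp4 higher and Olig2 lower, and for 19.8% of all genes, 9.50% higher and 10.3% lower. Leaving out each library in turn kept the 3 calls, with adjusted p from 0.0017 to 0.026 for Gpr17, from 0.0024 to 0.026 for Olig2 and from 0.0091 to 0.049 for Olig1. In a single fit of all 12 libraries in 3 groups, which takes the spread from library 43 as well, only Gpr17 kept its call (adjusted p = 0.041), while Olig2 (-0.37, adjusted p = 0.2495) and Olig1 (-0.27, adjusted p = 0.346) lost theirs.

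Between the runs of numbers within the MFN2 genotype, Gpr17 had the smallest adjusted p of the 9 genes and did not pass the threshold. All 5 of MFN2 72-76 lay above all 3 of MFN2 41-43, with a log2 fold change of 0.45 (SE 0.103, edgeR adjusted p = 0.060). At the threshold, 0 of 9 members and 342 of 15633 genes (2.19%) were called; at an unadjusted p under 0.05 there was 1 member, Gpr17, beside 24.6% of genes. Levels that did not overlap were found for 1 member and for 18.4% of all genes. Without library 43 the adjusted p of Gpr17 was 0.028, and with DESeq2 it was 0.0034. Olig1 and Olig2 had log2 fold changes of 0.09 (SE 0.200) and 0.07 (SE 0.229), and without library 43 these turned to -0.16 and -0.20, while without library 41 they were 0.36 and 0.38. The Gpr17 difference between 2 sets of mice of the same genotype (0.45) and that against WT mice (0.41) are set side by side here, and both use the same 5 libraries.

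**Figure D5:**
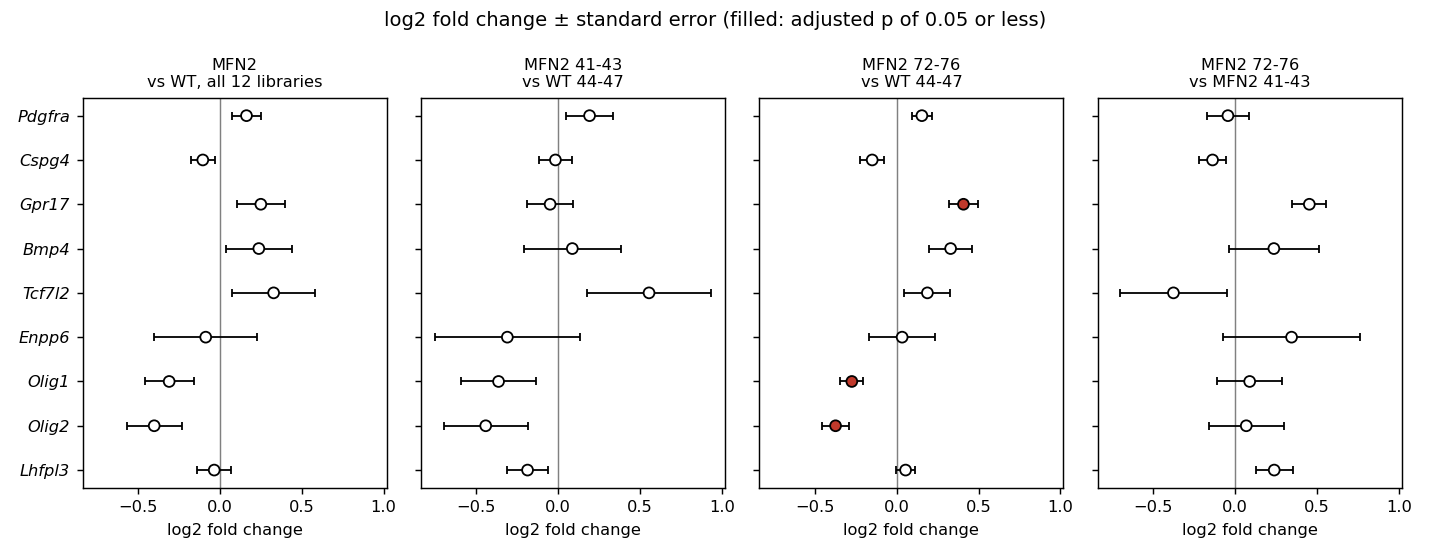
Fitted log2 fold change of each of the 9 genes with its standard error in the 4 comparisons; filled points have an adjusted p of 0.05 or less in the edgeR test. Filled points occur only for Gpr17, Olig1 and Olig2 between MFN2 72-76 and WT 44-47, and Gpr17 lies at about the same place between MFN2 72-76 and MFN2 41-43.

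Genes of the same stages, pathways and neighbouring cells were listed to place the 9 genes, and all counts of calls below are from the edgeR test at an adjusted p of 0.05. Over all mice 0 genes of any list were called, as for all 15942 genes. MFN2 41-43 against WT likewise gave 0 calls in every list, and so did both comparisons without library 43. Apart from Fst and Sp5, every listed gene exceeded 1 CPM in at least 1 library. Where a gene is called below, the comparison is MFN2 72-76 against WT, in which genotype and run of numbers cannot be told apart and 23.8% of all genes were called.

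Between MFN2 72-76 and WT, other listed genes of the committed and premyelinating stage moved mostly the way of Gpr17. The other members of this stage, Bmp4, Tcf7l2 and Enpp6 (0.33, 0.19 and 0.03), were not called. Of 12 tested, 7 were higher and 1 lower, with a median log2 fold change of 0.26 against -0.00066 over all genes. Casr, the calcium-sensing receptor, rose by 1.28 from 2.27 CPM ± 1.24 in WT mice to 5.58 ± 1.17, and Cemip2, a surface hyaluronidase, rose by 0.47 (adjusted p of 0.012 and 0.0022). The gene that fell was Nkx2-2 (-0.65, adjusted p = 0.010), a homeodomain factor of the lineage. Bcas1, the most abundant per length of this list and a marker of early myelinating cells, stood at -0.33 on the log2 scale (adjusted p = 0.126). Against MFN2 41-43, 10 of these 12 genes had positive values and 1 was called, the scaffold gene Frmd4a (0.35, adjusted p = 0.0496). Between MFN2 41-43 and WT, within 1 run of numbers, 6 of the 12 had positive values, with a median of -0.02.

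Other precursor genes showed no common direction. Of 16, 3 were higher and 2 lower, with a median of 0.01. Pcdh15, a protocadherin, and Vcan, the matrix proteoglycan versican, rose by 0.49 and 0.43 (adjusted p of 0.0010 and 0.020), and Cacng4, an AMPA receptor subunit, rose by 0.31 (adjusted p = 0.027). Against MFN2 41-43, Pcdh15 was called as well (0.45, adjusted p = 0.039). Tmem100 fell by 0.49 and Xylt1, a xylosyltransferase that starts proteoglycan chains, by 0.27. The most abundant, Ptprz1, stood at 0.02 on the log2 scale (adjusted p = 0.847). Cell division genes gave 0 calls among 14 tested, with Pcna, the most abundant, at -0.11 (adjusted p = 0.291), and their summed level, 116 CPM ± 59.7 in WT mice and 120 ± 37.5 in MFN2 72-76, was highest in WT library 44 at 205 CPM.

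Among 10 other transcription factors of the lineage, 2 were higher and 3 lower. Zfp488 and Sox8 rose by 0.70 and 0.31 (adjusted p of 0.0023 and 0.0497); Sox8 was also the most abundant of the list. Nkx6-2 fell by 0.83 from 51.0 CPM ± 11.2 to 28.7 ± 4.59 (adjusted p = 0.0064), beside Nkx2-2 above, and Sox9, which astrocytes also express, fell by 0.53 (adjusted p = 0.00044) and was lower against MFN2 41-43 too (-0.48, adjusted p = 0.020). Of the 10 genes listed as inhibitors of differentiation, 0 were higher and 4 lower, and these 4 were the whole Id family, whose products block basic helix-loop-helix factors by pairing with them. Id3 and Id1 fell by 0.63 each, Id2 by 0.44 and Id4 by 0.40 (adjusted p from 0.0019 to 0.018). Gpr37, the most abundant of that list, stood at -0.12 on the log2 scale (adjusted p = 0.432).

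The Id genes are also targets of the pathway in which Bmp4 is a ligand. Of 25 other genes of that pathway, 1 was higher and 9 lower, with a median log2 fold change of -0.09. Chrdl1, which binds and holds back BMP ligands, rose by 0.67 (adjusted p = 0.025), and the largest falls were in the ligand Bmp6 (-0.91, adjusted p = 0.042) and the inhibitory Smad6 (-0.63, adjusted p = 0.046). The receptors Bmpr1a and Bmpr1b and the transducer Smad1 were also lower. Id2 was the most abundant gene of this list, and Fst stayed under 1 CPM in every library. Against MFN2 41-43, Id4 was called as well (-0.53, adjusted p = 0.045). The astrocyte markers, 5 of 8 of which were lower in this comparison, moved in the same direction as the Id genes, which astrocytes also express; their part in the Id values was not tested.

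Of 21 other genes of the WNT and TCF pathway to which Tcf7l2 belongs, 2 were higher and 6 lower, with a median of -0.20. Apcdd1, a surface inhibitor of WNT, and Apc, a part of the complex that breaks down beta-catenin, rose by 0.58 and 0.18 (adjusted p of 0.0011 and 0.034). The ligands Wnt7a and Wnt7b fell by 0.71 and 0.54 (adjusted p of 0.0012 and 0.00063). Ctnnb1, beta-catenin itself and the most abundant of the list, fell by 0.21 (adjusted p = 0.0081). Wnt7a was lower against MFN2 41-43 too (-0.98, adjusted p = 0.013), and Sp5 stayed under 1 CPM. Among the 5 PDGF genes that share a pathway with Pdgfra, Pdgfc was higher (0.42, adjusted p = 0.037) and Pdgfb lower (-0.40, adjusted p = 0.045), while Pdgfa, the main ligand of the receptor and the most abundant, had -0.04 (adjusted p = 0.755).

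Mature oligodendrocyte genes gave 0 higher and 4 lower calls of 18, with a median of -0.18. Klk6, a protease of mature oligodendrocytes, fell by 1.02 to 37.3 CPM ± 14.9 in MFN2 72-76, and Gjb1, a gap junction protein, fell by 0.79 (adjusted p of 0.046 and 0.0066), with Hapln2 and Apod also lower. The summed level of the list was 30219 CPM ± 3835 in WT mice and 29519 ± 5297 in MFN2 72-76. The lower Olig1 and Olig2 thus stood beside a sum of myelin messages that differed by less than its spread between mice.

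Markers of other cells moved in the same comparison. Of 8 microglia markers 0 were higher and 7 lower, with a summed level of 217 CPM ± 25.0 in WT mice and 162 ± 13.9 in MFN2 72-76; C1qa and Tmem119 fell the most (-0.84 and -0.76). Against MFN2 41-43, 1 of the 8 was called, Cx3cr1, a chemokine receptor (-0.72, adjusted p = 0.0496). Of 8 astrocyte markers 5 were lower, led by the most abundant, Gfap (-1.08, adjusted p = 0.021), and their sum was 7400 CPM ± 423 against 5571 ± 589. Pericytes, which share Cspg4 with precursors, gave 1 higher call of 8, Anpep (0.87, adjusted p = 0.0059), and Rgs5, their most abundant marker, had 0.22 (adjusted p = 0.057). Endothelial markers gave 1 lower call of 8, the most abundant, Cldn5 (-0.82, adjusted p = 0.0069). Neuron markers gave 2 higher calls, Syt1 and Nefm (0.47 and 0.35), and 1 lower, Snap25 (-0.18), of 8, with Nefl, the most abundant, at 0.03.

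Fibroblasts of the meninges, which share Pdgfra with precursors, gave 0 calls of 6 tested, Pdgfra itself among them; Col1a1, their most abundant marker, had 139 CPM ± 94.6 in WT mice and 126 ± 44.4 in MFN2 72-76. Schwann cell markers gave 0 calls of 6, motor neuron markers 0 of 7 (Prph, the most abundant, -0.01) and caudal Hox genes 0 of 9 (Hoxb8, -0.01). The most abundant gene on the Schwann cell list was Mbp, which oligodendrocytes share (-0.38, adjusted p = 0.109). Forebrain markers gave 1 higher call of 8, Nrgn, at 23.2 CPM ± 2.35 against 15.6 ± 2.73 in WT mice (0.57, adjusted p = 0.0055), and thalamus markers 1 of 8, Ntng1 (0.22, adjusted p = 0.047), with Calb2, the most abundant, at 0.09. The part of other cell types in the values of Gpr17, Olig1 and Olig2 was not tested.

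Calls between the MFN2 sets depend on library 43. Without it, MFN2 72-76 against libraries 41 and 42 called 15.3% of all genes tested, and all 6 listed genes called with it (Cx3cr1, Frmd4a, Id4, Pcdh15, Sox9 and Wnt7a) were called again with the same sign. Other committed and premyelinating genes then gave 4 higher and 0 lower calls of 12, Casr, Cemip2, Frmd4a and Itpr2, with 10 of 12 values positive as before. Other precursor genes gave 1 higher and 3 lower calls of 16, and the WNT and TCF list gave 1 higher and 9 lower of 21. Bcas1 turned from 0.08 to -0.30 on the log2 scale (adjusted p of 0.906 and 0.200, edgeR). The sets hold mice of 1 genotype, so these values differ between the runs of numbers.

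The genes whose log2 CPM followed each member most closely over the 12 libraries are given as a description, since 5 of the 12 libraries belong to another run of numbers than the other 7, and library 43 weighs heavily in any such likeness. Enpp6 was most like Gsn, Cnp and Ugt8a (Pearson r of 0.988, 0.986 and 0.986 over 12 libraries); the latter 2 make myelin components, and without library 43 they stayed among its 3 closest genes (0.968 and 0.977). Olig1 was most like 5031439G07Rik, Ctnna1 and Olig2 (0.985, 0.982 and 0.982), and Olig2 most like Ermp1, Mtmr10 and Thbs2 (0.990, 0.987 and 0.983). For Lhfpl3 the closest were Asap3, Mog and Ubl3 (0.969, 0.961 and 0.959), and for Pdgfra they were Rap2a, Ppfibp1 and Tnr (0.927, 0.924 and 0.921). Without library 43 the list of Pdgfra changed to Sox8, Vcan and Apc (0.969, 0.958 and 0.946), of which Sox8 is a lineage transcription factor and Vcan a precursor gene. Gpr17 was most like Bdh1, Fbn2 and Arpc1b (0.942, 0.940 and 0.933), Bmp4 like A330074H02Rik, Megf6 and Gcfc2 (0.935, 0.932 and 0.926), Tcf7l2 like Morc2a, Proser1 and Tet3 (0.959, 0.951 and 0.950) and Cspg4 like Sema3g, 9130023H24Rik and Sox18 (0.909, 0.885 and 0.861). Without library 43, 5 of the 9 members (Pdgfra, Bmp4, Tcf7l2, Olig1 and Lhfpl3) kept 0 of their 3 closest genes, 3 members kept 1 (Sema3g for Cspg4, Bdh1 for Gpr17 and Ermp1 for Olig2), and Enpp6 kept 2. Olig2 was then no longer among the 3 closest to Olig1, and the closest to Lhfpl3 were Ctsl, Cyp4f16 and Slc22a23 (0.919, 0.919 and 0.900) in place of genes that included Mog, a myelin gene.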

How the data were processed

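RNA-seq libraries of 8 MFN2 and 4 WT lumbar spinal cords were used. STAR and GRCm38.p6 are named in the submitters' processing notes. The values deposited are unnormalized read counts, 1 whole number for each Ensembl gene and library; which program counted the reads, and whether it used strand, is not given in the sources used here, so reads of overlapping genes on opposite strands cannot be told apart. Genotypes came from the sample labels. The 9 genes, the gene lists and the tests were chosen with earlier results of these data known.

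Gene symbols, positions and merged exon lengths came from GENCODE M21 (GRCm38); 49289 of 49548 genes had a symbol. RPKM assumes reads spread along the whole transcript, and the labels and the study's methods name different library kits. Genes that exceeded 1 CPM in 3 or more of the libraries fitted were scaled by TMM and tested over all of them with edgeR 4.0.16 in R 4.3.3 (quasi-likelihood test, legacy form, robust), with Benjamini-Hochberg adjustment and a threshold of 0.05. Standard errors were derived from the F statistic, and log2 CPM used a prior count of 2. Total counts from 19359454 to 26738930 per library set the precision. The p-values set a difference between groups against the spread between mice within them. In comparisons across the runs of numbers, that difference also carries any difference between the runs. In no pair of libraries of 1 genotype did counts agree within sampling noise (lowest chi-square per degree of freedom 5.34).

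Named were all 9 genes, the most abundant gene per length of each list, the called genes of a list (where over 4, the 2 largest rises and 2 largest falls; further called genes are named in a few places after their values were seen), and the 3 genes most like each member by Pearson r. The most abundant gene of 2 lists is not reported here. The alternatives were other filters, other scalings, DESeq2 1.42.0, limma voom (limma 3.58.1), other forms of the edgeR test, a covariate for the run of library numbers, 1 fit of 3 groups and each library left out in turn. The test was checked on simulated data, and the outcome of that check is not reported here. Genes of the mitochondrial chromosome were not analysed here.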

Additional observations from a re-analysis of the deposited data

Results flagged for a closer look

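In each genotype the highest or lowest library of each of the 9 genes was compared with the rest, as its gap to the nearest library divided by the whole range of the group. Of 18 such groups, 3 passed Dixon's 95% critical value (0.829 for the 4 WT and 0.526 for the 8 MFN2 libraries), where chance flags about 1 in 20. Tcf7l2 was far above the other MFN2 libraries in library 43, with 42.3 CPM against 23.2 CPM in the next and a gap of 0.692 of the range. Tcf7l2 was also low in WT library 46, at 11.9 CPM against 18.6 CPM (gap 0.909), and Bmp4 was low in the same library, at 3.41 CPM against 3.75 CPM (gap 0.863). The difference for Bmp4 rests on 77 reads in that library.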

How the results depend on the processing

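No paired analysis was made, because the sample labels used here give no pairing between mice. Over all 12 libraries, genes called numbered 0 in the main test, 200 with DESeq2 and 0 to 19 when each library was left out (19 without library 43), with 0 members throughout. MFN2 41-43 against WT gave 1 gene, 5 with DESeq2, 0 without a filter, with limma voom or in 1 fit of 3 groups, and 0 to 2 with a library left out, again with 0 members. MFN2 72-76 against WT gave 3746 genes, 1224 in 1 fit of 3 groups and 2350 (without WT library 45) to 4517 with a library left out; its 3 members became 5 with library size only (Pdgfra 0.23, adjusted p = 0.012, and Bmp4 0.40, adjusted p = 0.045, were added), 1 in the fit of 3 groups, and 3 to 4 with a library left out, Cspg4 being added without WT library 44 (-0.21, adjusted p = 0.036). MFN2 72-76 against MFN2 41-43 gave 342 genes, 1794 with DESeq2, 1339 in the fit of 3 groups and 31 (without library 74) to 2375 (without library 43) with a library left out; its 0 members became 1, Gpr17, with no filter, with library size only, with DESeq2 and in the fit of 3 groups, and 0 to 1 with a library left out. Library size only shifted the median of all genes by at most 0.07 (log2).

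Signs turned only for values that had not passed the threshold. Over all libraries these were Lhfpl3 with library size only (0.017), Gpr17 with the run of numbers as a covariate (-0.064), and Enpp6 and Lhfpl3 without library 43 (-0.21 to 0.045 and -0.066 to 0.025 over all libraries left out). In MFN2 41-43 against WT, Bmp4 turned with limma voom (-0.045); with a library left out, Bmp4 ran from -0.28 to 0.36, Cspg4 from -0.074 to 0.031, Enpp6 from -1.02 to 0.068, Gpr17 from -0.17 to 0.029 and Tcf7l2 from -0.076 to 0.82. In MFN2 72-76 against WT, Enpp6 ran from -0.13 to 0.11. Between the MFN2 sets, Pdgfra turned with library size only (0.035), and with a library left out Bmp4 ran from -0.044 to 0.61, Enpp6 from -0.037 to 1.07, Olig1 from -0.16 to 0.36, Olig2 from -0.20 to 0.38, Pdgfra from -0.17 to 0.14 and Tcf7l2 from -0.65 to 0.26. Where a call was lost or gained, the cause was not tested. Bmp4, with 59 to 119 reads a library, is the member whose depth limits precision most.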
